A study of Mus musculus with 12 samples.

Results

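The 9 genes described here are Oasl1, an oligoadenylate synthetase-like protein of the mouse, and 8 other genes of the interferon response: Isg15, Ifit3, Irf1, Irf7, Irf9, Stat2, Bst2 and Tap1. They were chosen by name with earlier results of these data known, and Oasl1 was selected on its difference between the compounds, so the differences between compounds are given for the 9 genes as a description without a test. The array reports listed 16 probes under 8 of the 9 symbols, and updating the names added 1 probe for Isg15, which gives 17 probes of 45281 on the array. Of these, 10 probes of 5 genes (Oasl1, Irf1, Irf9, Stat2 and Bst2) passed a filter that asked for a detection p under 0.05 on at least 3 arrays, as did 13280 of the 30561 genes on the array. Isg15, Ifit3, Irf7 and Tap1 did not pass it and were not tested.

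RNA came from VC1 cells, a mouse lung adenocarcinoma line derived from a female of the A/J strain per the labels, and was hybridised to Illumina mouse bead arrays after 6 h of exposure. The groups were CDDO-Im at 0.05 µM, CDDO-Me at 0.1 µM, DMF (dimethyl fumarate) at 15 µM, and DMSO, the vehicle, with 3 arrays in each. Both triterpenoids derive from the synthetic acid CDDO, CDDO-Im as its imidazolide and CDDO-Me as its methyl ester, and the series title names all 3 compounds as activators of NRF2, the transcription factor of the response to electrophiles. The doses differ between the compounds, all values come from 1 cell line, and nothing in the labels says whether the arrays of a group came from separate cultures, so p-values measure only the spread between these arrays.

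Type I interferons bind a receptor at the cell surface and, through JAK kinases, activate STAT proteins, among them STAT2, which joins IRF9 in the complex ISGF3. ISGF3 binds the interferon-stimulated response element (ISRE) in the promoters of interferon-stimulated genes, while IRF1 and GAS sites serve the interferon gamma response. In the mouse, OASL1 is known as a feedback inhibitor that blocks translation of the mRNA of IRF7, the factor that amplifies interferon production.

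The promoters of Oasl1 and of Isg15, the ubiquitin-like modifier that is a standard interferon-stimulated gene, are shown for contrast, since Oasl1 was the gene that differed between compounds and Isg15 was at background. Windows of 300 bases around the RefSeq transcript starts (250 before to 50 after; assembly GRCm38.p6) were searched on both strands for an ISRE core (GAAANNGAA), a GAS (TTCNNNGAA), the core of the antioxidant response element bound by NRF2 (TGACNNNGC) and an NF-kB site. Oasl1 lies on chromosome 5 (chr5:114923143-114937911), and its window, chr5:114922990-114923289 on the plus strand, held no match to the first 3 motifs. The transcript start used for Oasl1 lies inside this gene interval, so fewer bases before the gene were searched than for Isg15. Isg15 lies on chromosome 4 (chr4:156199424-156200818), and its window, chr4:156200769-156201068 on the minus strand, held 3 overlapping ISRE cores, the run in capitals.
Oasl1: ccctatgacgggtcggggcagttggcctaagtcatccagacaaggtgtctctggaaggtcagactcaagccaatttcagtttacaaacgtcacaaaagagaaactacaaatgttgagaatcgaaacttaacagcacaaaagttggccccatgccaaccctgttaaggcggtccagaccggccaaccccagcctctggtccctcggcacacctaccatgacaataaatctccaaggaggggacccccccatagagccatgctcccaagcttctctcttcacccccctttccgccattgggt
Isg15: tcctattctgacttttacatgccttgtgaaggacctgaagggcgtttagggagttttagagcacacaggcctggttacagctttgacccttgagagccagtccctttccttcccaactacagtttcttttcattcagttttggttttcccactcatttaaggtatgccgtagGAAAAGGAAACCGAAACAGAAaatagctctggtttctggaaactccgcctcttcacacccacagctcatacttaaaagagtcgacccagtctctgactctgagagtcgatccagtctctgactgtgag

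An ISRE core was found in 8.56% of the 32851 promoter windows of the assembly, a GAS in 8.3%, the antioxidant response element core in 12.4% and an NF-kB site in 4.51%. Among the 9 genes an ISRE core was present for Isg15, Ifit3, Stat2 and Bst2, and was not found in these windows for Oasl1, Irf1, Irf7, Irf9 and Tap1. The transcript starts used for Irf7 and Ifit3 also lie inside their gene intervals. For Irf1 and Irf9 a further window inside the gene was searched, so the windows of the 9 genes were not placed alike. The only match in the Oasl1 window was an NF-kB site at -14 from the transcript start used. It lies at chr5:114923226-114923235, inside the gene interval given above. Irf1 had a GAS at -90 and an NF-kB site at -13, Bst2 had a GAS at -136 that overlapped its first ISRE core and an NF-kB site at -142 that overlapped this GAS, and Irf7 had the only antioxidant response element core, at -245. The sites below are printed with flanking bases on the gene's own strand and the match in capitals, to show the letters behind these counts; a match is a description of the sequence and no evidence of binding.
Oasl1, NF-kB site on the opposite strand: tccaaggaGGGGACCCCCccatagag
Stat2, ISRE core on the opposite strand: accctggtTTCAGTTTCctttccct
Ifit3, the second of 3 ISRE cores on the opposite strand: aagtctgtTTCAGTTTCtactttcc
Bst2, first of 2 overlapping ISRE cores: cattccagGAAAATGAAactgaaag
Irf1, GAS: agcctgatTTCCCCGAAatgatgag
Irf7, antioxidant response element core on the opposite strand: ccaaaGCAGGGTCAgcctctct

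The 12 arrays lay on 2 BeadChips, each with all 4 groups. DMSO replicate 1 and CDDO-Im replicate 2, both on chip 1, stood apart: the raw intensity averaged 440 and 457 on them and 552 to 684 elsewhere, and their median correlations with the other arrays were 0.916 and 0.936, against at least 0.988 for any pair among the 10. Differences from DMSO are therefore given over 12 arrays and over the 10 that remain without those. The known NRF2 target Slc7a11 had normalized log2 signals of 13.14 to 13.53 with CDDO-Im, 13.25 to 13.32 with CDDO-Me and 12.93 to 13.01 with DMF, against 9.21 to 9.75 with DMSO. Of 8 lung epithelial markers, 6 were detected on all 12 arrays, while Epcam and Sftpc were detected on none. Of 11 leukocyte markers on the array, 9, Ptprc and Cd3e among them, were detected on no array, as were 4 of 7 fibroblast markers (Col3a1, Dcn, Lum and Thy1) and 3 of 6 endothelial markers (Pecam1, Vwf and Emcn). Summed over the 2 fibroblast markers that could be tested, Col1a2 and Pdgfra, the signal was 108 to 199 with CDDO-Im, 90.4 to 99.1 with CDDO-Me and 63.1 to 89.4 with DMF, against 53.1 to 69.4 with DMSO, and its part in the results was not tested. Summed over the 2 leukocyte markers that could be tested, Cd68 and Csf1r, the signal was 105 to 117 with CDDO-Im, 104 to 134 with CDDO-Me and 107 to 141 with DMF, against 119 to 254 with DMSO. Mean log2 signals of Cd68 were 5.75, 6.42 and 6.33 with CDDO-Im, CDDO-Me and DMF, against 6.85 with DMSO. Those of Csf1r were 5.57, 5.14 and 5.19, against 5.23.

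Oasl1 was highest with DMF, next with CDDO-Im, then with DMSO, and lowest with CDDO-Me. The brightest of its 3 probes, ILMN_2793464, was used for the gene. Its raw intensity was 961, 1028 and 959 on the DMF arrays, above every other array. On the CDDO-Im arrays it was 777, 663 and 662, also above every DMSO and CDDO-Me array. CDDO-Me arrays read 453, 516 and 461, against 531, 480 and 546 on the DMSO arrays, so these overlapped before normalization.

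After normalization the CDDO-Me arrays, at log2 8.45, 8.55 and 8.44, lay below every other array. The signals were 9.43, 9.84 and 9.31 with CDDO-Im and 9.63, 9.74 and 9.75 with DMF, against 9.35, 8.79 and 8.96 with DMSO. CDDO-Im overlapped DMF through replicate 2 and DMSO through its replicate 1, which are the arrays that stood apart. DMF and CDDO-Im are therefore neighbours whose order is not larger than their spread over 12 arrays, whereas DMF against DMSO did not overlap. The means were 9.53 ± 0.28 with CDDO-Im, 8.48 ± 0.06 with CDDO-Me and 9.71 ± 0.07 with DMF, against 9.03 ± 0.29 with DMSO (SD, n = 3 each).

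**Figure D1:**
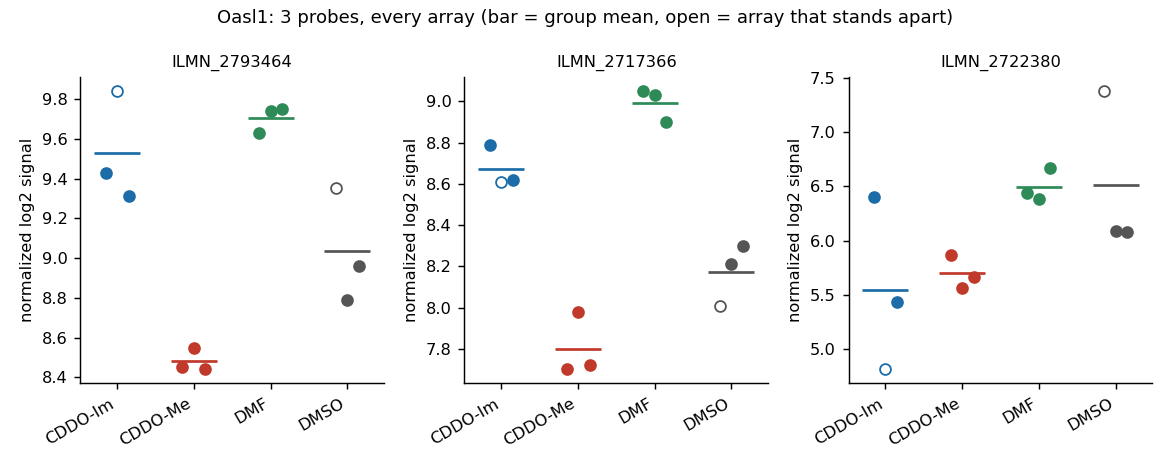
Normalized log2 signal (y axis) of the 3 Oasl1 probes by group (x axis), 1 point per array, with the bar at the group mean and open points for the 2 arrays that stood apart. In the probes ILMN_2793464 and ILMN_2717366 the DMF and CDDO-Im means are above the DMSO mean and the CDDO-Me mean is below it, whereas in ILMN_2722380 the open points are the highest and the lowest of the 12.

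Against DMSO, with all 12 arrays and chip as a term, the log2 difference of Oasl1 was 0.50 ± 0.19 with CDDO-Im (SE; 1.41-fold), -0.53 ± 0.19 with CDDO-Me (a ratio of 0.693) and 0.70 ± 0.19 with DMF (1.62-fold). limma's p-values were 0.0253, 0.0216 and 0.00508 unadjusted, and 0.333, 0.457 and 0.335 after Benjamini-Hochberg adjustment over 13280 genes, so none was called. Over the 10 arrays Oasl1 rose with CDDO-Im by 0.50 ± 0.09 (adjusted p = 0.00839), fell with CDDO-Me (-0.40 ± 0.08; adjusted p = 0.0144) and rose with DMF by 0.82 ± 0.08 (adjusted p = 0.000818). With 12 equally weighted arrays none of these calls was made, nor when any 1 array was left out. They share their arrays with the differences between compounds for which Oasl1 was picked, and are no independent evidence of them.

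The direction of this probe was the same on each chip. On chip 1 the difference from DMSO was 0.57 with CDDO-Im, -0.62 with CDDO-Me and 0.56 with DMF, and on chip 2 it was 0.36, -0.46 and 0.79 in that order.

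A second Oasl1 probe, ILMN_2717366, separated all 4 groups with no overlap after normalization. Its log2 signals were 8.79, 8.61 and 8.62 with CDDO-Im, 7.70, 7.98 and 7.72 with CDDO-Me and 9.05, 9.03 and 8.90 with DMF, against 8.01, 8.21 and 8.30 with DMSO. On this scale every DMF array was above every CDDO-Im array, every CDDO-Im array above every DMSO array and every DMSO array above every CDDO-Me array. Before normalization only DMF was apart, at raw intensities of 567 to 658. Both CDDO-Me (290 to 370) and CDDO-Im (282 to 521) then overlapped DMSO (252 to 367). In a limma fit of all kept probes over 10 arrays, the differences of this probe from DMSO were 0.46 ± 0.12 with CDDO-Im (adjusted p = 0.0506), -0.45 ± 0.11 with CDDO-Me (adjusted p = 0.0366) and 0.74 ± 0.11 with DMF (adjusted p = 0.00676). Over 12 arrays none of these was called: the differences were 0.50 ± 0.15, -0.39 ± 0.16 and 0.81 ± 0.16 for CDDO-Im, CDDO-Me and DMF (limma adjusted p of 0.224, 0.625 and 0.106).

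The third probe, ILMN_2722380, was dim, with raw intensities of 74.9 to 186 and was not detected on CDDO-Im replicate 2. It disagreed with the other probes on CDDO-Im. DMSO replicate 1 was its highest array, at log2 7.38, and CDDO-Im replicate 2 its lowest, at 4.81, and both are arrays that stood apart. Over 12 arrays its differences from DMSO were -0.97 ± 0.42 with CDDO-Im, opposite in sign to the other probes, -0.73 ± 0.43 with CDDO-Me and 0.06 ± 0.43 with DMF (limma adjusted p of 0.383, 0.744 and 0.965). On chip 2, which holds neither of those arrays, CDDO-Im minus DMSO was also negative, at -0.65, with 1 array in each group. Its differences from DMSO over 10 arrays were -0.17 ± 0.23 with CDDO-Im, -0.34 ± 0.21 with CDDO-Me and 0.45 ± 0.21 with DMF, and none was called (adjusted p of 0.736, 0.4 and 0.244 by limma).

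Between compounds, at doses that differ, Oasl1 (ILMN_2793464) was 1.03 higher on the log2 scale with CDDO-Im than with CDDO-Me, which is 2.04-fold. With CDDO-Me it was lower than with DMF by a log2 difference of -1.23. CDDO-Im minus DMF was -0.20, and -0.33 over 10 arrays. Among the 13280 genes, ordered by log2 difference over 12 arrays, Oasl1 stood 13th from the highest for CDDO-Im minus CDDO-Me and 19th from the lowest for CDDO-Me minus DMF. For CDDO-Im minus DMF it stood 2391st from the lowest. Over 10 arrays these places were 8th from the highest, 19th from the lowest and 451st from the lowest. The dim probe did not follow the first of these, with a CDDO-Im minus CDDO-Me difference of -0.24 over 12 arrays and 0.17 over 10.

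Of the 5 tested members, 0 were called in either direction against DMSO over 12 arrays, and Oasl1 alone had an unadjusted p under 0.05 in each of the 3 comparisons. Of all 13280 genes, 1686, 1069 and 938 had such a p with CDDO-Im, CDDO-Me and DMF. Over all genes limma called 1.42% higher and 0.392% lower with CDDO-Im, 1.02% higher and 0.399% lower with CDDO-Me, and 0.324% higher and 0.0226% lower with DMF. Over 10 arrays the call on Oasl1 was the only one among the 5 in each comparison: 1 higher with CDDO-Im, 1 lower with CDDO-Me and 1 higher with DMF. The background was then 5.75% higher and 4.99% lower with CDDO-Im, 5.55% and 5.53% with CDDO-Me, and 4.14% and 4.24% with DMF.

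**Figure D2:**
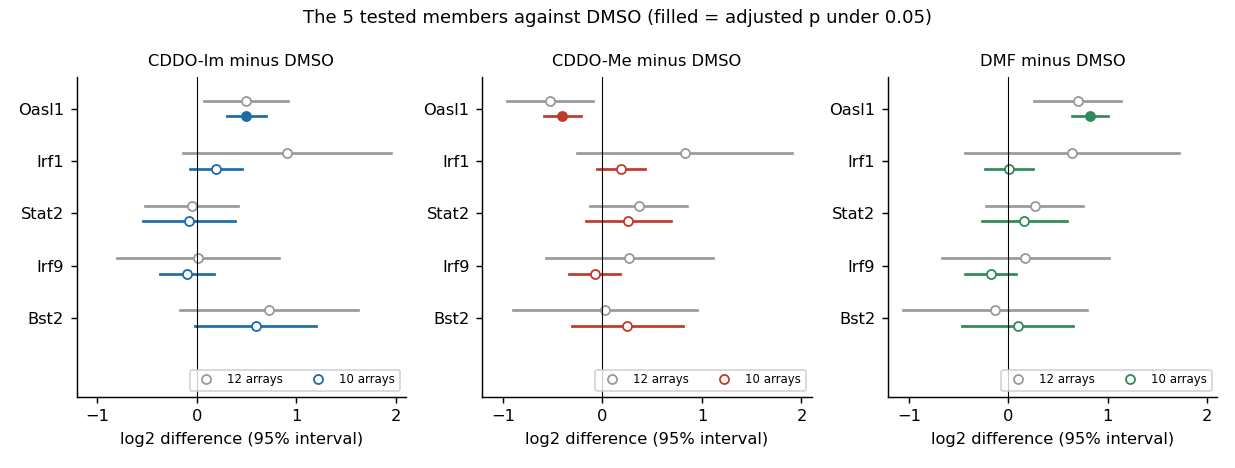
Log2 difference from DMSO (x axis) of the 5 tested members (y axis) with 95% intervals, in grey over 12 arrays and in colour over 10, filled where the limma adjusted p was under 0.05. Oasl1 over 10 arrays is the only filled point in each panel, at 0.50 with CDDO-Im, -0.40 with CDDO-Me and 0.82 with DMF.

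Among the signalling factors, Stat2 and Irf9, the subunits of ISGF3 that lead it to the ISRE, overlapped between each compound and DMSO. Stat2 (ILMN_2657822; chr10:128270498-128292853) was dim, with log2 signals of 5.72, 5.53 and 6.15 with CDDO-Im, 6.24, 6.14 and 6.51 with CDDO-Me and 6.27, 6.42 and 5.91 with DMF, against 5.53, 5.84 and 6.18 with DMSO. Its differences from DMSO over 12 arrays were -0.05 ± 0.21, 0.36 ± 0.22 and 0.26 ± 0.22 for CDDO-Im, CDDO-Me and DMF, and none was called (limma adjusted p of 0.914, 0.719 and 0.666). Over 10 arrays they were -0.07 ± 0.20, 0.26 ± 0.19 and 0.16 ± 0.19 (adjusted p of 0.871, 0.448 and 0.64). Irf9 (ILMN_1233461; chr14:55603985-55610030) read 7.32, 6.23 and 7.13 with CDDO-Im, 7.18, 7.35 and 7.16 with CDDO-Me and 7.25, 7.21 and 6.93 with DMF, against 6.01, 7.35 and 7.30 with DMSO.

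The low Irf9 values, 6.23 and 6.01, belong to the arrays that stood apart. Without them its differences from DMSO were -0.10 ± 0.12, -0.08 ± 0.11 and -0.18 ± 0.11 for CDDO-Im, CDDO-Me and DMF (limma adjusted p of 0.691, 0.716 and 0.355), against 0.01, 0.27 and 0.17 over 12 arrays. The other Irf9 probe was detected on 2 of 12 arrays.

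**Figure D3:**
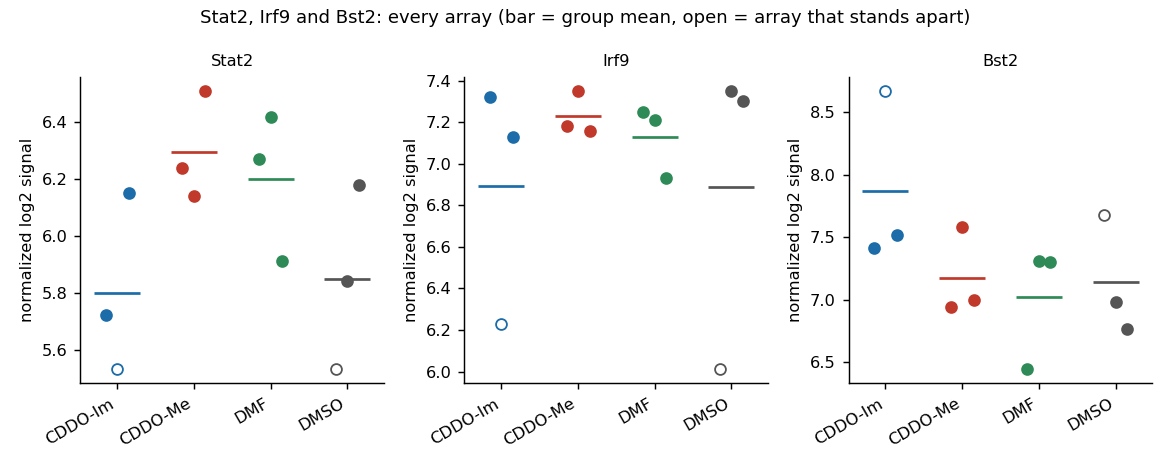
Normalized log2 signal (y axis) of Stat2, Irf9 and Bst2 by group (x axis), 1 point per array, with the bar at the group mean and open points for the 2 arrays that stood apart. Over 12 arrays each compound overlaps DMSO for all 3 genes; both low Irf9 values (6.23 and 6.01) and the highest Bst2 value (8.67) are open points.

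Irf1 (chr11:53770014-53778374), a transcription factor induced by interferon gamma, had 5 probes, of which 4 were kept, and these disagreed. The brightest, ILMN_2834777, read log2 10.81, 10.81 and 10.83 with CDDO-Im, 10.70, 10.84 and 10.88 with CDDO-Me and 10.76, 10.55 and 10.56 with DMF, against 8.47, 10.76 and 10.49 with DMSO. DMSO replicate 1 differed from the mean of the other DMSO arrays by -2.15, and on the raw scale it read 325, against 1733 and 1440 on those arrays. With it the differences from DMSO were 0.90 ± 0.47 with CDDO-Im, 0.83 ± 0.48 with CDDO-Me and 0.64 ± 0.48 with DMF (limma adjusted p of 0.442, 0.719 and 0.661). Over 10 arrays they were 0.19 ± 0.11, 0.19 ± 0.10 and 0.00 ± 0.10 (adjusted p of 0.359, 0.317 and 0.985).

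The probe ILMN_2599782 had its highest signal on that same DMSO array, at log2 11.23 (raw 1795), against 9.91 and 10.16 on the other DMSO arrays. For CDDO-Im minus DMSO this probe gave -0.01 ± 0.32 over 12 arrays and 0.11 ± 0.12 over 10. ILMN_2649067 and ILMN_2649068 fell to background on CDDO-Im replicate 2, at 4.76 and 5.07, against 6.70 to 6.94 and 6.55 to 6.98 on the other CDDO-Im arrays. No Irf1 probe was called against DMSO in the fit of all kept probes, over 12 or 10 arrays.

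**Figure D4:**
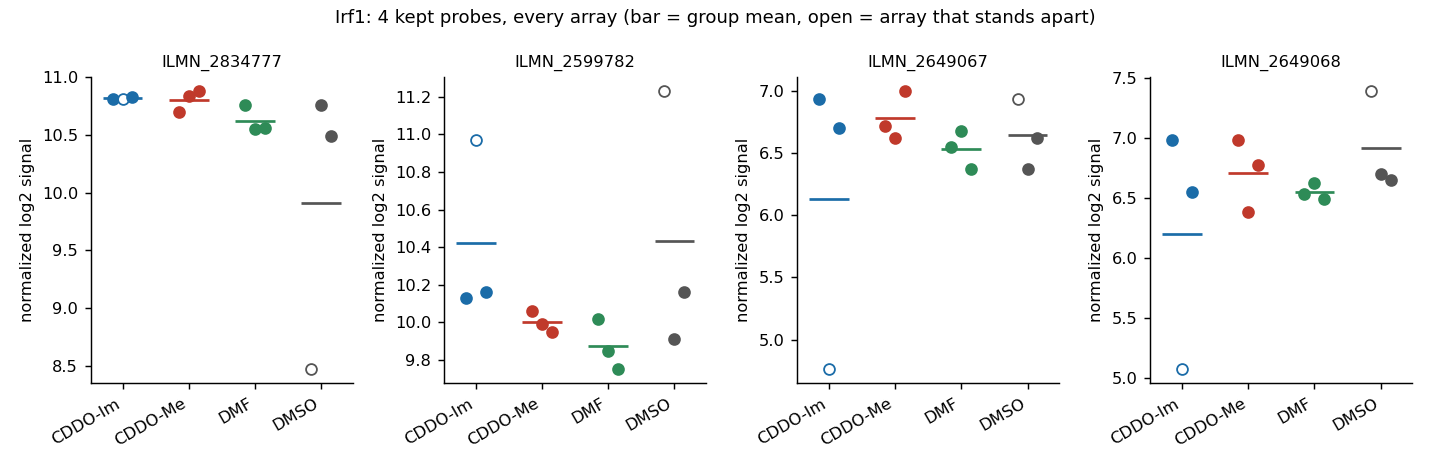
Normalized log2 signal (y axis) of the 4 kept Irf1 probes by group (x axis), 1 point per array, with the bar at the group mean and open points for the 2 arrays that stood apart. DMSO replicate 1 is the lowest point in ILMN_2834777 (8.47) and the highest in ILMN_2599782 (11.23), while the filled points of the 4 groups lie close together in every panel.

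Bst2 (tetherin, chr8:71534255-71537472), which holds enveloped virions at the cell surface, was the tested effector. Its log2 signals were 7.41, 8.67 and 7.52 with CDDO-Im, 6.94, 7.58 and 7.0 with CDDO-Me and 6.44, 7.31 and 7.30 with DMF, against 7.68, 6.98 and 6.76 with DMSO. The highest CDDO-Im value and the highest DMSO value came from the arrays that stood apart. Over 12 arrays the differences were 0.73 ± 0.40 with CDDO-Im, 0.02 ± 0.41 with CDDO-Me and -0.13 ± 0.41 with DMF (limma adjusted p of 0.455, 0.989 and 0.909). Over 10 arrays they were 0.59 ± 0.26, 0.25 ± 0.24 and 0.09 ± 0.24 (adjusted p of 0.214, 0.596 and 0.853), so Bst2 passed the test with no compound.

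The untested members were at or near background in every group. Isg15 (ILMN_1256257) had raw intensities of 68.2 to 92.6 and was detected on 1 of 12 arrays, CDDO-Me replicate 1. The 2 probes of Ifit3 (chr19:34583119-34588982), an antiviral protein that binds viral RNA with its paralogs, were detected on 0 and 1 arrays, and could share RNA with the near copy Ifit3b. Irf7 (chr7:141263183-141266499), whose mRNA is the known target of OASL1, was detected on 2 arrays, with its highest raw intensity, 150, on DMSO replicate 1 and 69.4 to 102 elsewhere. Tap1 (chr17:34187556-34197225), a subunit of the peptide transporter of antigen presentation, was detected on no array, at raw intensities of 68.7 to 90.9. These intensities do not show whether the genes were off: they show only that the signal was not above the array's background probes.

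Beside the 9 members, 121 further genes of the interferon pathway were on the array and 64 were tested. Over 12 arrays limma called 0 of the 64 in any of the 6 comparisons. Against DMSO the unadjusted p was under 0.05 for 6 of the 64 with CDDO-Im, 5 with CDDO-Me and 2 with DMF. Among all 13280 genes tested it was under 0.05 for 1686, 1069 and 938 in that order. The median log2 difference of the 64 was 0.08, -0.08 and -0.10 for CDDO-Im, CDDO-Me and DMF, and over all genes tested it was 0.06, -0.00 and -0.00. Over 10 arrays 3 of the 64 rose and 4 fell with CDDO-Im, 3 rose and 4 fell with CDDO-Me, and 0 rose and 2 fell with DMF. Apart from the absence of rises with DMF, these are near the shares of all genes called over 10 arrays. With DMF the unadjusted p was under 0.05 over 10 arrays for 14 of the 64, and for 3333 of all 13280 genes. The median differences over 10 arrays were -0.07, -0.07 and -0.09, against -0.02 in each comparison for all genes.

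Of 13 tested sensors and adaptors, 2 were called higher with CDDO-Im and 2 with CDDO-Me over 10 arrays. Over all genes 5.75% and 5.55% were called higher. Counts this small were not tested against those shares. Over 10 arrays Tbk1, the kinase that phosphorylates IRF3, rose with CDDO-Im by 0.42 ± 0.09 (limma adjusted p = 0.0263) and with CDDO-Me by 0.35 ± 0.09 (adjusted p = 0.0364). Cgas, the sensor of cytosolic DNA, read log2 8.36, 8.91 and 8.26 with CDDO-Im and 8.49, 8.18 and 8.29 with CDDO-Me, against 7.02, 7.97 and 7.86 with DMSO, so both triterpenoid groups lay above every DMSO array. It rose over 10 arrays by 0.39 ± 0.09 with CDDO-Im (adjusted p = 0.0233) and by 0.44 ± 0.08 with CDDO-Me (adjusted p = 0.00909). Over 12 arrays the differences were larger, at 0.82 and 0.87 for Tbk1 and 0.90 and 0.75 for Cgas with CDDO-Im and CDDO-Me, but were not called (limma adjusted p of 0.436, 0.687, 0.193 and 0.449). They include DMSO replicate 1, which stood apart and read lowest for both genes. For Tbk1 it read 9.44, against 11.32 and 11.14 on the other DMSO arrays. CDDO-Im replicate 2, which also stood apart, read 11.06 for Tbk1, below those 2 DMSO arrays. Of 13 tested sensors and adaptors none other was called. With DMF none of the 13 was called; Dhx58, a helicase related to RIG-I, had -0.56 ± 0.21 (adjusted p = 0.136), and -0.79 over 12 arrays (adjusted p = 0.554).

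Of 11 tested receptor and JAK-STAT genes, 2 were called lower with CDDO-Im, 3 with CDDO-Me and 1 with DMF over 10 arrays. Over all genes 4.99%, 5.53% and 4.24% were called lower in that order. These counts too are small and were not tested against those shares. Ifnlr1, a chain of the interferon lambda receptor, read 8.03, 8.76 and 7.95 with CDDO-Im and 7.93, 7.93 and 7.81 with CDDO-Me, against 8.76, 8.71 and 8.49 with DMSO. Of these triterpenoid arrays only CDDO-Im replicate 2 reached the level of the vehicle. Over 10 arrays Ifnlr1 fell with CDDO-Im (-0.62 ± 0.08; limma adjusted p = 0.00247) and with CDDO-Me (-0.69 ± 0.08; adjusted p = 0.000781), and it was also called lower with CDDO-Im than with DMF (-0.41 ± 0.08; adjusted p = 0.0402) and with CDDO-Me than with DMF (-0.48 ± 0.07; adjusted p = 0.00685). Over 12 arrays Ifnlr1 was not called in these 4 comparisons, with differences of -0.41, -0.69, -0.21 and -0.48 and limma adjusted p from 0.23 upward.

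Ifngr2, a chain of the interferon gamma receptor, was called lower with all 3 compounds over 10 arrays: -0.65 ± 0.13 with CDDO-Im (limma adjusted p = 0.0143), -0.81 ± 0.12 with CDDO-Me (adjusted p = 0.00319) and -0.69 ± 0.12 with DMF (adjusted p = 0.0105). Its signals were 7.46, 9.25 and 7.54 with CDDO-Im, 7.31, 7.53 and 7.27 with CDDO-Me and 7.39, 7.60 and 7.47 with DMF, against 10.18, 7.91 and 8.38 with DMSO, and the 9.25 and 10.18 are the arrays that stood apart. With those arrays the differences were -0.74, -1.35 and -1.24 for CDDO-Im, CDDO-Me and DMF, with no call (limma adjusted p of 0.56, 0.604 and 0.661). Ifngr1, the other chain, was called lower with CDDO-Me over 10 arrays (-0.35 ± 0.08; adjusted p = 0.0228) and not over 12 (-0.34; adjusted p = 0.719), and is named here after its value was seen, as the third of 11 tested receptor and JAK-STAT genes called with CDDO-Me.

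Of 19 tested antiviral effectors over 10 arrays, 1 was called higher and 1 lower with CDDO-Im, 1 higher with CDDO-Me and 1 lower with DMF. Over all genes 5.75% were called higher and 4.99% lower with CDDO-Im. These shares were 5.55% and 5.53% with CDDO-Me, and 4.14% and 4.24% with DMF. The counts are small and were not tested against them. Parp12 rose with CDDO-Im by 0.31 ± 0.08 (limma adjusted p = 0.0406) and with CDDO-Me by 0.35 ± 0.07 (adjusted p = 0.0175). Dtx3l, a ubiquitin ligase, fell with CDDO-Im (-0.53 ± 0.12; adjusted p = 0.0311) and with DMF (-0.51 ± 0.11; adjusted p = 0.032). Usp18, the protease that removes ISG15 from proteins, was 1 of 2 tested genes of ISG15 conjugation. It fell with CDDO-Im (-0.67 ± 0.17; adjusted p = 0.0436), where Isg15 itself was not detected. Usp18 was dim, at log2 5.50, 6.32 and 5.53 with CDDO-Im, against 6.58, 6.18 and 6.18 with DMSO. The 6.32 and 6.58 are the arrays that stood apart, and the 6.32 lies above the DMSO arrays kept in the fit. Irf2bp2, which binds IRF2, was 1 of 4 tested IRF factors and fell with CDDO-Me (-0.34 ± 0.07; adjusted p = 0.0216). None of these was called over 12 arrays. There Parp12 had 0.60 with CDDO-Im and 0.63 with CDDO-Me, Dtx3l had -0.78 with CDDO-Im and -0.48 with DMF, Usp18 had -0.53 with CDDO-Im and Irf2bp2 had -0.14 with CDDO-Me (limma adjusted p of 0.248 to 0.849). None of 10 tested genes of antigen processing and none of 4 tested GTPases was called with any compound over 10 arrays. Sets this small can hold no call at the shares of all genes given above, and this was not tested. Psmb10, an immunoproteasome subunit, had -0.24 ± 0.06 with DMF over 10 arrays (limma adjusted p = 0.0603), and -0.09 over 12 arrays (adjusted p = 0.907). None of the 4 chemokines could be tested, and of 9 interferon genes on the array Ifna1 alone was.

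**Figure D5:**
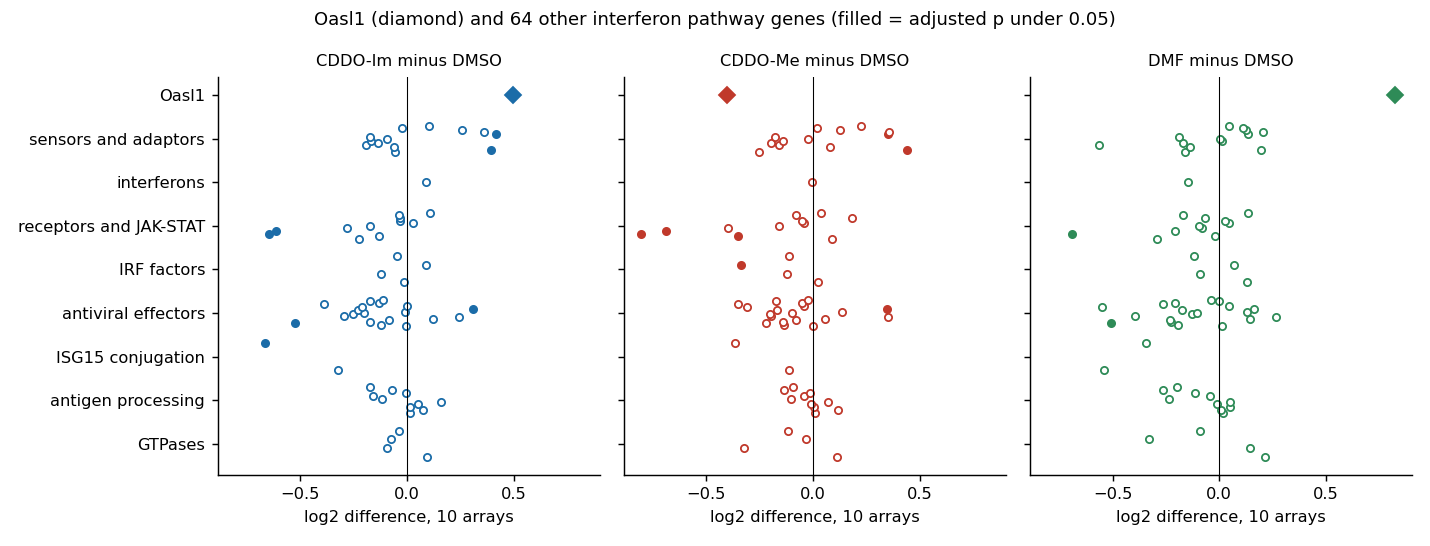
Log2 difference from DMSO over 10 arrays (x axis) of Oasl1 (diamond) and of 64 other interferon pathway genes by role (y axis), 1 point per gene, filled where the limma adjusted p was under 0.05. Oasl1 is at 0.50, -0.40 and 0.82 with CDDO-Im, CDDO-Me and DMF, while the filled points of the other genes are Tbk1, Cgas and Parp12 on the right and receptor genes, Dtx3l, Usp18 and Irf2bp2 on the left.

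Between compounds, over 12 arrays, 0 of the 64 pathway genes were called, where limma called 0% of all genes for CDDO-Im minus CDDO-Me, 0% for CDDO-Im minus DMF and 0.0904% for CDDO-Me minus DMF. The unadjusted p was under 0.05 for 1, 0 and 1 of the 64 in that order, and for 206, 443 and 326 of all 13280 genes. Over 10 arrays 0 were called for CDDO-Im minus CDDO-Me and 1 for CDDO-Im minus DMF, where 0.136% and 1.81% of all genes were called. For CDDO-Me minus DMF 3 were called, Ifnlr1, Ifngr1 and Irf2bp2, where 4.2% of all genes were called. All of these pathway calls were lower. For CDDO-Im minus CDDO-Me over 10 arrays the unadjusted p was under 0.05 for 4 of the 64, and for 1030 of all 13280 genes. Ifngr1 was lower with CDDO-Me than with DMF (-0.33 ± 0.07; adjusted p = 0.0358), as was Irf2bp2 (-0.40 ± 0.06; adjusted p = 0.0121).

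Oasl1 was chosen because it departs from the other members, so their correlations with it restate that choice and are given as a description. Across 12 arrays, with the chip difference taken out, the Pearson correlation of their log2 signal with that of Oasl1 was -0.13 for Irf1, -0.40 for Irf9, -0.41 for Stat2 and 0.36 for Bst2, and across 10 arrays it was -0.38, -0.31, -0.27 and 0.08. The genes most like Oasl1 across 12 arrays, of 13279 candidates, were P4ha2, a collagen prolyl hydroxylase subunit (r = 0.938), and Pfkfb4, an enzyme that sets the level of fructose 2,6-bisphosphate (r = 0.917). Pfkfb4 read 10.49, 10.66 and 10.51 with CDDO-Im, 9.85, 9.84 and 9.95 with CDDO-Me and 10.84, 10.87 and 10.90 with DMF, against 10.34, 10.46 and 10.41 with DMSO, the order of groups seen for the Oasl1 probe ILMN_2717366, again without overlap. D030026J11Rik, Eps8l2 and Pttg1 followed (r = 0.903, 0.898 and 0.891).

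Across 10 arrays the closest was Adgra1, an adhesion G protein-coupled receptor (r = 0.978), followed by D030026J11Rik, Smad3, Wfs1 and Ttc7b (r of 0.951 to 0.968). Adgra1 read 7.96, 8.77 and 7.82 with CDDO-Im, 6.98, 7.04 and 6.88 with CDDO-Me and 8.01, 7.97 and 7.87 with DMF, against 7.01, 7.24 and 7.37 with DMSO. These correlations are descriptions across arrays that fall into 4 groups, share 2 chips and were normalized together, and only D030026J11Rik was among the first 5 in both orders.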

How the data were processed

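The intensities were mean bead signals per probe on 12 arrays, exported without normalization or background subtraction, per the file headers, by GenomeStudio's Gene Expression module (version 1.9.0). The detection p-values in the deposited reports compare each probe with its array's background probes. The authors also deposited a matrix of normalized intensities, whose normalization is not given in the sources used here; it served only as an alternative (column medians 170.18 to 172.05). Array number limits the precision. Groups follow the sample titles; the design text gives 0.1 µM beside CDDO-Im where the titles and treatment protocol give it for CDDO-Me.

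Signals were corrected with limma's normexp method (background from the detection p-values, offset 16), put on the log2 scale and quantile normalized. Probes with a detection p under 0.05 on at least 3 arrays were kept, 19211 in all. Names were updated through RefSeq (GRCm38.p6) with the Entrez number (29586 probes) or the transcript accession (2759 probes), and 12936 probes kept the array's symbol. Each gene was read from its kept probe with the highest mean. limma (version 3.58.1, R 4.3.3) fitted group and chip, two-sided, with Benjamini-Hochberg adjustment over 13280 genes and a call at an adjusted p under 0.05. The fit was run on simulated data with independent noise and shifts larger than those of Oasl1. That simulation held no arrays that stand apart, so it does not bear on the differences of Oasl1.

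The members, the pathway and marker lists and the 10-array fit were chosen with earlier results of these data known. Named pathway genes are, per role and comparison, up to 2 called genes with the largest differences or, with none called, the 1 with the smallest p; the text gives those that bear on a result. The 5 genes with the highest Pearson correlation with Oasl1 in chip-adjusted log2 signal are also named. Deviations of same-numbered arrays correlated at -0.59 to 0.56 (median -0.24), over 0.1 in 6 of 18 pairs. For arrays with different numbers the correlations were -0.58 to 0.57 (median 0.02), over 0.1 in 15 of 36 pairs. Same-numbered arrays were thus not more alike than others. The pairs include the arrays that stood apart, so this does not decide whether the numbers pair the samples.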

Additional observations from a re-analysis of the deposited data

How the results depend on the processing

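Over all 12 arrays no setting called Oasl1 against DMSO except array quality weights, which were estimated gene by gene because limma's default estimate did not converge. The direction of Oasl1 was kept in all 3 comparisons with DMSO under all 28 alternatives. Its difference with CDDO-Me varied with the normalization, at -0.24 with median scaling and -0.37 in the authors' matrix, against -0.53 in the main fit. Leaving out both arrays that stood apart gave 0.50, -0.40 and 0.82 for CDDO-Im, CDDO-Me and DMF, weights gave 0.41, -0.44 and 0.77, and correcting and normalizing the 10 arrays again, an alternative chosen after seeing the data, gave 0.49, -0.40 and 0.82. limma's adjusted p for Oasl1 ranged from 0.00184 to 1, 0.00101 to 1 and 4.86e-05 to 0.999 over the alternatives. Chip 2 alone called Oasl1 with DMF (0.79; adjusted p = 0.0492). Leaving out 1 array at a time called no member, with Oasl1 between 0.34 and 0.65, between -0.65 and -0.39 and between 0.57 and 0.83. The members called numbered 1 in each comparison over 10 arrays, also after processing again; with weights they numbered 2 with CDDO-Im (Oasl1 and Bst2, at 0.76 with an adjusted p of 0.0173), 1 with CDDO-Me and 1 with DMF. Between compounds, Oasl1 for CDDO-Im minus CDDO-Me was 0.71 with median scaling, 0.73 in the authors' matrix and 0.82 on chip 2. CDDO-Im minus DMF was -0.41 with median scaling, 0.01 on chip 1 and -0.43 on chip 2. CDDO-Me minus DMF was -1.11 without background correction, -1.15 with an offset of 50, -1.11 with median scaling, -0.90 in the authors' matrix and -1.31 to -1.18 with 1 array left out. The cause was not tested.

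Irf9 turned its sign. With CDDO-Im it was -0.00 without background correction, with an offset of 50 and in the authors' matrix, -0.12 with median scaling, -0.10 over 10 arrays and after processing again, -0.13 with weights, -0.17 on chip 2 and -0.42 to 0.32 with 1 array left out. With CDDO-Me Irf9 was -0.08, -0.08, -0.06 and -0.04, and with DMF -0.18, -0.18, -0.15 and -0.23, over 10 arrays, after processing again, with weights and on chip 2, and the ranges with 1 array left out were -0.10 to 0.52 and -0.20 to 0.42. Stat2 with CDDO-Im was 0.04 with cyclic loess and -0.18 to 0.06 with 1 array left out, and with DMF -0.01 on chip 2. Bst2 with CDDO-Me was -0.39 on chip 1 and -0.31 to 0.28 with 1 array left out. Bst2 with DMF was 0.09 over 10 arrays and after processing again, 0.30 with weights, 0.55 on chip 2 and -0.47 to 0.33 with 1 array left out. The cause was not tested.

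The pathway genes called with CDDO-Im, CDDO-Me and DMF numbered 0 over 12 arrays, 7, 7 and 2 over 10 arrays and after processing again, and 16, 13 and 12 with weights. Chip 2 alone called 1 with CDDO-Me, and 1 array left out gave 0 to 1 with CDDO-Im and with CDDO-Me. For CDDO-Im minus CDDO-Me weights called 1, for CDDO-Im minus DMF 10 arrays, weights and processing again called 1 each, and for CDDO-Me minus DMF they called 3, 4 and 3, and a fit of those groups alone called 2. Over all genes, 240, 189 and 46 were called with CDDO-Im, CDDO-Me and DMF over 12 arrays, 1427, 1472 and 1113 over 10, 1388, 1447 and 1076 after processing again, 3670, 3181 and 3081 with weights, 105, 121 and 34 with median scaling, 3, 27 and 1 with only the groups compared, 0 on chip 1, 293, 401 and 147 on chip 2, and 101 to 382, 42 to 327 and 23 to 121 with 1 array left out. DMF gave 87 with cyclic loess, 86 in the authors' matrix and 80 without the chip term. For CDDO-Im minus CDDO-Me, CDDO-Im minus DMF and CDDO-Me minus DMF the counts over 12 arrays were 0, 0 and 12, against 18, 240 and 558 over 10 arrays and 236, 814 and 976 with weights, and CDDO-Me minus DMF had 449 with only the groups compared. Where only 1 array of a group is left on a chip, it is assumed to vary like the other groups. Probes near background, among them those of Isg15, Ifit3, Irf7 and Tap1, limit what signal can show.

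With the replicate number as a block, Oasl1 was 0.50, -0.56 and 0.67 with CDDO-Im, CDDO-Me and DMF (limma adjusted p of 0.286, 0.388 and 0.35), and the genes called over the array numbered 234, 109 and 36. The block called no member, and whether the numbers pair the arrays is not known.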
